A study of Rattus norvegicus with 6 samples.

Results

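Osteopontin, the product of Spp1, is a phosphorylated protein of mineralized matrix, and its transcripts were set here beside those of 8 other genes of bone and mineral. The 9 genes were taken by name from a table of 30562 rat genes, and each name matched 1 gene. Spp1, Ibsp, Dmp1 and Mepe belong to the SIBLING family, Bglap and Alpl are genes of osteoblasts, and Phex, Sost and Fgf23 are known from osteocytes. The purpose of the set was to read Spp1 against the bone content of each sample.

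SIBLING proteins are secreted, acidic glycoproteins that bind collagen, mineral and integrins, and their genes lie next to each other in mammals. Osteoblasts lay down bone matrix and mineralize it, and some of them become osteocytes, which sense load and regulate phosphate and bone formation. Osteopontin differs from most of the family in that macrophages, osteoclasts and cells of injured tissue also make it, so its level alone does not count bone cells.

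The series holds 6 bulk RNA libraries of rat tail discs, 3 of a control group and 3 labelled AF-PTK@LEV@SPP1. By the study's methods they came from 12-week-old male Sprague-Dawley rats whose disc had been punctured with a needle. The controls are called PBS here from the paper's description. Their titles say only control and their count columns IVD, so this match was inferred. AF-PTK@LEV@SPP1 is a vesicle made of liposomes and detoxified bacterial outer membrane vesicles that carries an siRNA against Spp1, described as one against the mouse gene, and a peptide that binds the annulus fibrosus through a linker cleaved by reactive oxygen species. It was injected into the disc in 10 μL at 1 mg/kg of siRNA from 24 h after surgery, over 8 weeks, and controls received PBS. The sample records differ from this description, since they name an untreated control, a treatment of 14 days and sorted macrophages of mice, and disc collagen at high levels in every library goes against a sample of sorted macrophages. Col2a1, the main collagen of cartilage and disc, stood at 13870, 21130 and 20930 normalized CPM (read counts on one common scale of depth) in PBS replicates 1, 2 and 3 and at 25960, 20370 and 31980 in the labelled replicates 1, 2 and 3.

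The libraries held 17942989, 16565291 and 17489851 counts in PBS and 17074981, 15560728 and 17855184 in the group labelled AF-PTK@LEV@SPP1. The smallest level taken as measured, 3 counts, was 0.154 to 0.193 normalized CPM, which covers counting error only. Between PBS replicates 2 and 3 the variation was 1.33 times that of counting noise, against 51.3 to 107 times for the 5 other pairs within a group. These may be 1 library deposited under 2 names and were therefore counted as 1 sample, which left n = 2 distinct samples in PBS and n = 3 in the labelled group. With so few samples an exact permutation test, two-sided, cannot give a p below 0.1.

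None of the 9 genes passed the test between the groups. In edgeR's quasi-likelihood test over 15537 genes, 0 of the 9 had an adjusted p under 0.05, against 3.70% of all genes tested. Of all genes, 1.13% were called higher and 2.57% lower in the labelled libraries. An unadjusted p under that threshold was found for 0 of the 9, against 3941 of the 15537 genes. DESeq2 and limma-voom also called 0 of the 9, as did edgeR with the 6 libraries kept apart, where 18.1% of all genes were called. All 9 genes passed the filter on low counts. For Dmp1, Mepe, Phex, Bglap and Sost, PBS replicate 1 stood well above PBS replicates 2 and 3.

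Spp1 had 158141, 68560 and 72347 counts in PBS replicates 1, 2 and 3, or 8123, 4411 and 4417 normalized CPM. In the labelled replicates 1, 2 and 3 it had 136985, 114408 and 148463 counts, or 8054, 6903 and 8461 normalized CPM. The groups overlapped, with PBS replicate 1 inside the range of the labelled libraries and the PBS pair below all of them. Mean levels were 6268 ± 2622 normalized CPM (SD, n = 2 distinct samples) and 7806 ± 808 (SD, n = 3). The log2 fold change of labelled over PBS was 0.31 with a standard error of 0.37 and a 95% interval from -0.62 to 1.24 (edgeR adjusted p = 0.628). Without PBS replicates 2 and 3, an alternative chosen after the data were seen, it was -0.07 (edgeR adjusted p = 0.945), and over all 17 alternatives the adjusted p ran from 0.29 to 0.945. No drop of rat Spp1 was thus seen under the label. The match of the siRNA to the rat gene was not examined, and directions below refer to the labels.

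Ibsp encodes bone sialoprotein, which nucleates mineral in early bone matrix. It stood at 2815, 1502 and 1485 normalized CPM in PBS and at 1061, 1489 and 652 in the labelled libraries. Labelled replicate 2 lay between PBS replicates 2 and 3, and the other labelled libraries lay below every PBS library. This overlap depended on the scaling, since with normalization factors from all genes in place of the filtered ones labelled replicate 2 had 1462 and PBS replicate 3 had 1504, and the groups did not overlap. Its log2 fold change was -1.02 (SE 0.44, 95% interval -2.14 to 0.10, edgeR adjusted p = 0.225), and it was negative in 17 of 17 alternatives, with an adjusted p from 0.101 to 0.586. With the PBS pair averaged the samples of the groups did not overlap (two-sided exact permutation test, p = 0.1, the smallest possible). By library, with factors from the filtered genes, 41.9% of all genes tested had no overlap in either direction.

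Dmp1 encodes a matrix protein of osteocytes that promotes mineralization and restrains Fgf23. PBS replicate 1 had 730 normalized CPM of it, replicates 2 and 3 had 129 and 134, and the labelled libraries had 307, 499 and 212. All labelled libraries lay between the PBS pair and PBS replicate 1. Mepe, a phosphoglycoprotein gene of osteocytes whose product inhibits mineralization, likewise had the labelled libraries between the PBS pair and PBS replicate 1, at 169, 22.2 and 21.1 normalized CPM in PBS and 84.5, 81.0 and 58.8 in the labelled libraries. The log2 fold changes were -0.35 for Dmp1 and -0.35 for Mepe, with 95% intervals from -2.24 to 1.54 and from -2.34 to 1.64 (edgeR adjusted p = 0.799 and 0.809). Without PBS replicate 1 both turned positive, at 1.35 and 1.77, with adjusted p-values of 0.256 and 0.0689 from edgeR. Over the 17 alternatives their adjusted p-values ran from 0.256 to 0.979 and from 0.0689 to 0.955.

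Phex encodes an endopeptidase of osteoblasts and osteocytes whose loss raises Fgf23 and wastes phosphate. It stood at 81.8, 13.3 and 13.7 normalized CPM in PBS and at 61.4, 71.8 and 50.6 in the labelled libraries, so that the labelled libraries again lay between the PBS pair and PBS replicate 1. Its annotated span overlaps 2 other genes, 1 on each strand, and reads may have been shared with them. Its log2 fold change was 0.36 (SE 0.71, edgeR adjusted p = 0.779).

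Bglap encodes osteocalcin, a product of mature osteoblasts, and was the gene of the set with the widest range. It had 12163, 188 and 207 counts in PBS, or 625, 12.1 and 12.6 normalized CPM, and 9647, 14475 and 13296 counts in the labelled libraries, or 567, 873 and 758 normalized CPM. PBS replicate 1 lay within the labelled range, and its level was 51.7 times that of the lowest PBS library. The labelled libraries differed from each other by 1.54-fold. The log2 fold change of 1.20 had a 95% interval from -2.26 to 4.66 (edgeR adjusted p = 0.615).

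Sost encodes sclerostin, an inhibitor of WNT signaling made by mature osteocytes. Its counts were 579, 29 and 22 in PBS and 1001, 1165 and 733 in the labelled libraries, which is 29.7, 1.87 and 1.34 against 58.9, 70.3 and 41.8 normalized CPM. Every labelled library lay above every PBS library, as was the case in this direction for 21.8% of all genes tested. Sost was the 1 gene of 9 with no overlap in either direction, against 41.9% of all genes tested. With factors from all genes there were 2, Ibsp, lower in the labelled libraries, being the other. Means of Sost were 15.7 ± 19.9 (SD, n = 2 distinct samples) and 57.0 ± 14.4 (SD, n = 3). The two-sided exact permutation test gave p = 0.1, the smallest possible. The log2 fold change was 1.87 with a standard error of 1.11 (edgeR adjusted p = 0.341).

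Bglap, Sost and Phex were called in 1 of their 17 alternatives, the fit without PBS replicate 1. There, with the PBS pair as a lone control sample assumed to vary like the labelled ones, these 3 of the 9 genes were called higher, against 0.406% of all genes tested. Their log2 fold changes were then 5.87, 5.13 and 2.16 (edgeR adjusted p = 0.0272, 0.0361 and 0.0494). The adjusted p over the 17 alternatives ran from 0.0272 to 0.758 for Bglap, from 0.0361 to 0.507 for Sost and from 0.0494 to 0.9 for Phex. Without PBS replicates 2 and 3 instead, the values were 0.22 for Bglap, 0.93 for Sost and -0.43 for Phex, and 0 of the 9 genes were called.

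Alpl encodes tissue-nonspecific alkaline phosphatase, which removes pyrophosphate, an inhibitor of mineral growth. It had 267, 112 and 117 normalized CPM in PBS and 142, 159 and 105 in the labelled libraries, and the groups overlapped. Its log2 fold change was -0.50 (SE 0.39, edgeR adjusted p = 0.458), and 0.22 without PBS replicate 1.

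Fgf23 encodes a hormone of osteocytes that makes the kidney excrete phosphate, and it was close to the limit of the depth. It had 44, 20 and 20 counts in PBS and 7, 7 and 91 in the labelled libraries, or 2.26, 1.29 and 1.22 against 0.412, 0.422 and 5.19 normalized CPM. Labelled replicate 3 alone lay above every PBS library, and the other labelled libraries lay below them. The log2 fold change of 0.20 (edgeR adjusted p = 0.934) became -2.05 without labelled replicate 3 (edgeR adjusted p = 0.203, within a range of 0.203 to 0.971 over 16 alternatives).

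**Figure D1:**
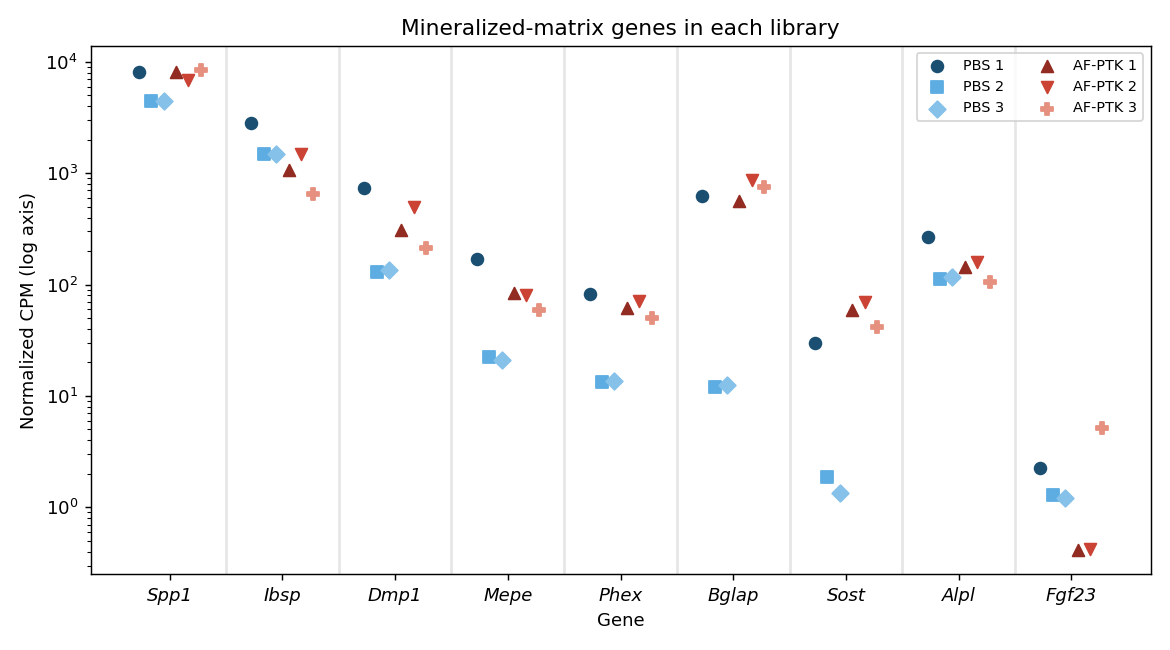
Normalized CPM (log axis) of the 9 genes, with 1 point for each library, 3 of PBS (blue) and 3 labelled AF-PTK@LEV@SPP1 (red, AF-PTK). Bglap ran from 12.1 to 873 and Spp1 from 4411 to 8461, and PBS replicates 2 and 3 lay together at the bottom for Spp1, Dmp1, Mepe, Phex, Bglap and Sost.

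The genes differed in how far they moved between libraries. The highest library exceeded the lowest 72.2-fold for Bglap and 52.3-fold for Sost, 8.02-fold for Mepe, 6.17-fold for Phex and 5.65-fold for Dmp1. The ratio was 12.6 for Fgf23, near the limit of the depth, 4.32 for Ibsp, 2.56 for Alpl and 1.92 for Spp1. Spp1 thus had the narrowest range of the 9 genes over these 6 libraries, and in PBS alone its ratio was 1.84 where that of Bglap was 51.7. In a bulk sample fewer cells of a type and less RNA per cell cannot be told apart, and so these ranges do not say whether the PBS pair held fewer bone cells.

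Ratios of counts within a library need no scaling between libraries. For every 1000 counts of Spp1, Bglap had 76.9, 2.74 and 2.86 counts in PBS and 70.4, 127 and 89.6 in the labelled libraries. PBS replicate 1 fell among the labelled libraries in this ratio, and the PBS pair lay far below. Ibsp behaved differently, with 347, 341 and 336 counts per 1000 of Spp1 in PBS and 132, 216 and 77 in the labelled libraries. All PBS libraries lay close together and above every labelled library, although the PBS libraries differed 1.84-fold in Spp1 itself. Alpl was also above, with 32.9, 25.5 and 26.4 counts per 1000 of Spp1 in PBS and 17.7, 23 and 12.4 in the labelled libraries. Sost was below, with 3.66, 0.423 and 0.304 against 7.31, 10.2 and 4.94. The share of all genes whose groups do not overlap in this ratio was not counted. Dmp1 had 89.9, 29.3 and 30.4 counts per 1000 of Spp1 in PBS and 38.2, 72.2 and 25.1 in the labelled libraries, and these overlapped.

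Ratios to Ibsp were taken in the same way. For every 1000 counts of Ibsp, Sost had 10.6, 1.24 and 0.904 counts in PBS and 55.5, 47.2 and 64.1 in the labelled libraries. Bglap had 222, 8.05 and 8.51 counts against 535, 587 and 1160. Both ratios were higher in each labelled library than in each PBS library, PBS replicate 1 included. The log2 fold change of Ibsp itself was -1.02, and a lower level of Ibsp raises every ratio to it. Spp1 had 2890, 2940 and 2970 counts per 1000 of Ibsp in PBS and 7590, 4640 and 13000 in the labelled libraries. The share of all genes whose groups do not overlap in this ratio was not counted. The ratio of Dmp1 to Ibsp was 259 counts per 1000 in PBS replicate 1 and 290, 335 and 326 in the labelled libraries, against 86 and 90.4 in the PBS pair. Phex and Alpl were also higher against Ibsp in each labelled library. Their own levels overlapped between the groups, and the log2 fold change of Alpl was -0.50. The groups overlapped in this ratio for Mepe, with 60, 14.8 and 14.2 in PBS and 79.7, 54.4 and 90.3 in the labelled libraries, and for Fgf23, with 0.803, 0.856 and 0.822 against 0.388, 0.284 and 7.96.

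The family members share a place in the genome. In the coordinates of the count table, whose build is not named consistently in the sources, Spp1 lies on chromosome 14 from 5308885 to 5315162, Mepe from 5420635 to 5432183, Ibsp from 5439829 to 5452693 and Dmp1 from 5528431 to 5539323. All of them are on the minus strand, and none overlaps another annotated gene. Dspp, the dentin member of the family, lies from 5565629 to 5571672 and had 2, 0 and 0 counts in PBS and 0, 0 and 3 in the labelled libraries, so it was not measurable at this depth. The neighbours outside the family were not called either, with log2 fold changes of 0.15 for Pkd2, a calcium channel gene, and 0.90 for Sparcl1, a matrix protein gene (edgeR adjusted p = 0.76 and 0.0879). The other genes of the set lie on chromosomes 2 (Bglap), 4 (Fgf23), 5 (Alpl), 10 (Sost) and X (Phex).

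**Figure D2:**
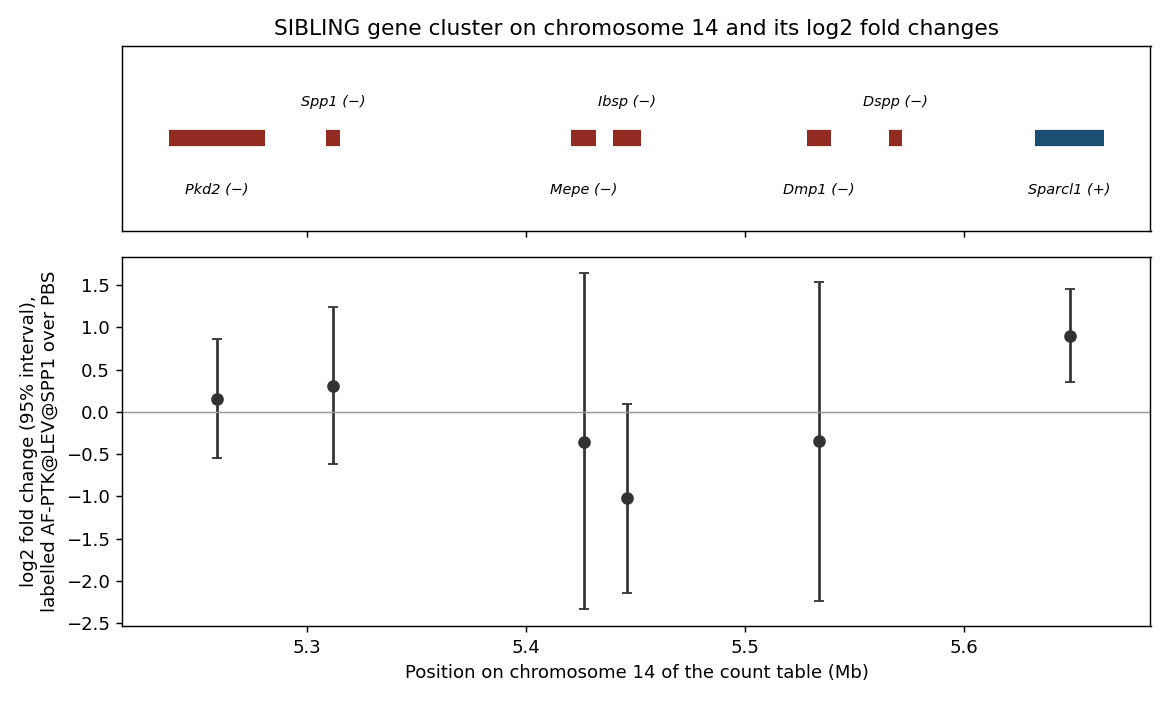
Map of the gene cluster on chromosome 14 in the coordinates of the count table (top, minus strand red, plus strand blue) and log2 fold change of labelled over PBS with its 95% interval for each gene tested (bottom). The intervals of Spp1, Mepe, Ibsp and Dmp1 include 0, and Dspp was not tested.

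Upstream sequence was read for the members with an entry among RefSeq promoters of GRCr8, 7 of the 9, because Bglap and Spp1 lay at opposite ends of the range of variation. The 250 bases before the start of transcription were searched on both strands for AACCACA and AACCGCA, forms of the motif bound by RUNX factors, and for TATAAA, the core of a TATA box; these were chosen after the data were seen. AACCACA occurred in Bglap and in 4.51% of 27457 promoters, AACCGCA in Spp1 and in 1.23%, and TATAAA in Spp1, Bglap and, on the opposite strand, Ibsp and in 13.2%. The sequences of Bglap (chr2:176137319-176137568), Spp1 (chr14:5619805-5620054) and Ibsp (chr14:5757243-5757492), all on the minus strand, are given 5′ to 3′ with these motifs in capitals, and a match is a description of the letters only.
Bglap: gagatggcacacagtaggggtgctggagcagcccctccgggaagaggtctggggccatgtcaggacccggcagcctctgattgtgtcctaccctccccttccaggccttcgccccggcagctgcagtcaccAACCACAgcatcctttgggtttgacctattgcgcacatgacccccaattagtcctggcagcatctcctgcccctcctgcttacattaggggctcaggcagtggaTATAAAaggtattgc
Spp1: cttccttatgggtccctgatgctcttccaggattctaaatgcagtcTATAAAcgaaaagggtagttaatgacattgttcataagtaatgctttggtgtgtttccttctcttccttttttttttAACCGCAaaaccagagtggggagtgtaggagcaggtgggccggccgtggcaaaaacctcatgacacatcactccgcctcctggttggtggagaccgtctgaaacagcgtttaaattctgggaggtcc
Ibsp: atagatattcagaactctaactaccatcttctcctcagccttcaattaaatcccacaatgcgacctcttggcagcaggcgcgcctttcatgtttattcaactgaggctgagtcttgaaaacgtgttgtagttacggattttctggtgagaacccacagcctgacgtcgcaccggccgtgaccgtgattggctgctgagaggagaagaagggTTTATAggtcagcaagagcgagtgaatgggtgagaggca

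The 5 genes whose profile over the 6 libraries was most like that of Spp1, among 10017 genes averaging 3 or more in log2 CPM, were Cpz, Gatb, Snorc, Rgs10 and Pak1. Their root mean square difference from Spp1 in centred log2 CPM was 0.11, 0.11, 0.11, 0.12 and 0.13. Snorc, a proteoglycan gene of cartilage, had 102, 47.1 and 44.7 normalized CPM in PBS and 93.6, 77.8 and 104 in the labelled libraries. The difference from Spp1 was 0.46 for Alpl, 0.69 for Dmp1, 0.725 for Phex, 0.741 for Mepe, 0.82 for Ibsp, 1.93 for Sost and 2.36 for Bglap. In this order they ranked 4587, 8419, 8629, 8716, 9022, 9956 and 9985 among the 10017 genes, the most alike first. Fgf23 averaged below 3 in log2 CPM and was not compared.

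Other genes were compared as lists, against 1.13% of all genes tested called higher and 2.57% called lower. With the 6 libraries kept apart, 1233 of 15042 genes tested were called higher and 1494 lower. Calls below from that fit stand against these counts. Of 17 osteoblast genes tested, 0 were called higher and 1 lower in the labelled libraries, with a median log2 fold change of 0.03 against 0.05 over all genes tested. Without PBS replicate 1 the list had a median of 0.47, and without PBS replicates 2 and 3 one of -0.38. The gene called was Cthrc1, a secreted protein of matrix-forming cells, at 167, 198 and 199 normalized CPM in PBS and 48.0, 45.4 and 29.2 in the labelled libraries (log2 fold change -2.17, SE 0.24, edgeR adjusted p = 0.024). Col1a1 and Col1a2, the chains of type I collagen and the most abundant genes of the list, are also made by the annulus. Col1a1 had 31920, 44730 and 45050 normalized CPM in PBS and 64080, 45960 and 51250 in the labelled libraries (edgeR adjusted p = 0.582). The list's sum was therefore mostly collagen, at 73900, 96590 and 97390 in PBS and 146200, 106400 and 129900 in the labelled libraries.

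Of 10 osteocyte genes tested, 0 were called in either direction, with a median log2 fold change of 0.21. Without PBS replicate 1 the median was 1.44, and without PBS replicates 2 and 3 it was -0.30. With the 6 libraries kept apart 1 was called higher. Their summed level was 1498, 651 and 660 normalized CPM in PBS and 1633, 1298 and 1258 in the labelled libraries. Cd109, a membrane protein gene, was the most abundant on average over the 6 libraries, at 257, 211 and 214 in PBS and 852, 426 and 593 in the labelled libraries (log2 fold change 1.40, edgeR adjusted p = 0.0867). The order of PBS replicate 1 and the labelled libraries depended on single genes, left out after the data were seen. Without Cd109 the sum was 1241, 439 and 446 in PBS and 781, 872 and 665 in the labelled libraries, and without Dmp1 it was 768, 521 and 525 against 1326, 799 and 1046. Dkk1, another WNT inhibitor, had 14.6, 1.99 and 2.93 normalized CPM in PBS and 20.8, 22.1 and 11.9 in the labelled libraries. Not every gene of the list ran this way. Pdpn had 123, 127 and 125 in PBS and 131, 52.7 and 72.4 in the labelled libraries. Fbln7 had 73.7, 135 and 139 against 104, 63.4 and 205.

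Genes of mineral formation had 0 of 11 called, with 10 of the 11 log2 fold changes negative, 1 of them (Anxa6) within 0.01 of 0, against 45.8% of all genes tested, and a median of -0.43. Without PBS replicate 1 the median was -0.06, and with the 6 libraries kept apart 3 were called lower, against 1494 of 15042 genes tested in that fit. Anxa2, an annexin of matrix vesicles, was the most abundant at 847, 1080 and 1092 normalized CPM in PBS and 539, 350 and 504 in the labelled libraries (edgeR adjusted p = 0.0846), and Anxa5, another annexin, had 288, 397 and 398 against 273, 189 and 236 (edgeR adjusted p = 0.204). Among inhibitors of mineral, 1 of 6 tested genes was called lower and 0 higher, with a median of -0.57 (-0.15 without PBS replicates 2 and 3). Ahsg and Abcc6 were at or under 3 counts in every library. Mgp, a vitamin K dependent inhibitor of calcification, had 1694, 2761 and 2774 normalized CPM in PBS and 715, 676 and 644 in the labelled libraries. It fell by 1.73 on the log2 scale (SE 0.26, edgeR adjusted p = 0.0397). Fbn1, the gene of fibrillin 1, had 558, 456 and 452 in PBS and 867, 376 and 673 in the labelled libraries (edgeR adjusted p = 0.616).

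The phosphate and FGF23 list had 0 of 12 tested genes called and a median of -0.35, and Kl, the co-receptor of Fgf23, and Cyp24a1, which degrades vitamin D, were at or under 3 counts in every library. The median turned to 0.06 with the 6 libraries kept apart, where 2 were called lower, and to 0.50 without PBS replicate 1. Fgfr1, a receptor of the hormone, had 271, 267 and 274 normalized CPM in PBS and 241, 221 and 173 in the labelled libraries (edgeR adjusted p = 0.265). For sclerostin and the WNT receptors 0 of 8 were called, with a median of 0.69, which was the same with Sostdc1 at its lower bound. Without PBS replicate 1 the median was 1.40, and with the 6 libraries kept apart 1 was called higher. Lrp4, which anchors sclerostin, had 75.1, 34.7 and 34.1 normalized CPM in PBS and 83.3, 137 and 83.2 in the labelled libraries (edgeR adjusted p = 0.251), and Lrp6 had 62.5, 79.1 and 79.3 against 91.8, 76.6 and 82.1.

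In a list of enzymes and factors that cut or modify osteopontin, with the thrombin receptor gene F2r included, most tested genes were called lower. Of 8 tested, 5 were called lower and 0 higher, against 2.57% of all genes tested called lower. The median of their log2 fold changes was -1.39. Mmp12, macrophage elastase, had 478, 282 and 294 normalized CPM in PBS and 2.82, 3.56 and 4.39 in the labelled libraries (log2 fold change -6.74, SE 0.33, edgeR adjusted p = 0.00863); its span overlaps Mmp1b on the minus strand. Mmp3, which cleaves osteopontin, had 920, 1738 and 1784 normalized CPM in PBS and 89.7, 97.4 and 77.9 in the labelled libraries (log2 fold change -3.93, edgeR adjusted p = 0.0194). No library of either group crossed over for these genes. Mmp9, a gelatinase, and Acp5, the phosphatase of osteoclasts that dephosphorylates osteopontin, had log2 fold changes of -1.66 and -2.02 (edgeR adjusted p = 0.026 and 0.0381). The remaining call was F2r, a receptor of thrombin, a protease that cleaves osteopontin, with a log2 fold change of -0.94 (edgeR adjusted p = 0.0395).

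Among 10 receptors of osteopontin 1 was called lower and 0 higher, with a median of -0.60 (-0.26 without PBS replicates 2 and 3). Cd44, a hyaluronan receptor that also binds osteopontin, had 497, 550 and 564 normalized CPM in PBS and 139, 107 and 127 in the labelled libraries (log2 fold change -2.09, SE 0.17, edgeR adjusted p = 0.0174). Itgb1, the integrin beta chain shared by many receptors, had 758, 1051 and 1067 against 804, 530 and 591 (edgeR adjusted p = 0.29).

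Osteoclasts and macrophages are other sources of Spp1, and several of their markers were called lower in the labelled libraries while Spp1 was not. Of 15 osteoclast genes 6 were called lower and 0 higher, against 2.57% of all genes tested called lower, and Acp5 and Mmp9 of these 6 are also among the 5 calls above. The list had a median of -1.97, which was -1.28 without PBS replicate 1 and -2.4 without PBS replicates 2 and 3. Its summed level was 7135, 4608 and 4626 normalized CPM in PBS against 1357, 1648 and 1108 in the labelled libraries. Ctsk, the collagenase of osteoclasts and on average the most abundant gene of the list, had 4090, 2701 and 2689 in PBS and 574, 486 and 286 in the labelled libraries (log2 fold change -2.93, edgeR adjusted p = 0.0306). Dcstamp, needed for the fusion of osteoclasts, had a log2 fold change of -3.34, and Atp6v0d2, a proton pump subunit, one of -2.72 (edgeR adjusted p = 0.0119 and 0.0444). The part of these cells in the level of Spp1 was not tested.

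Of 14 macrophage genes 3 were called lower and 0 higher, against 2.57% and 1.13% of all genes tested, with a median of -0.81. The median was -0.41 without PBS replicate 1 and -1.14 without PBS replicates 2 and 3. Summed levels were 3253, 2196 and 2180 in PBS and 758, 2038 and 2045 in the labelled libraries. The genes called were Ms4a7, Cd68 and Cd14, with log2 fold changes of -2.33, -1.97 and -1.89 (edgeR adjusted p = 0.0196, 0.0231 and 0.0119). The most abundant, Lyz2, is also made by neutrophils and had 1833, 1267 and 1247 in PBS and 272, 1243 and 1401 in the labelled libraries, and Mrc1, the mannose receptor gene, whose span overlaps Mir511, had 215, 180 and 179 against 87.7, 123 and 96.0 (edgeR adjusted p = 0.0616). Cd163, a scavenger receptor gene named for its direction, had the 1 positive log2 fold change of the list, at 54.0, 29.5 and 29.0 in PBS and 47.2, 142 and 88.3 in the labelled libraries (log2 fold change 1.15, edgeR adjusted p = 0.246). Of 9 genes known from macrophages with high Spp1, 3 were called lower and 0 higher, against the same shares of all genes, with a median of -1.0. Apoe, Gpnmb and Ctsd had log2 fold changes of -2.37, -1.96 and -1.15 (edgeR adjusted p = 0.0212, 0.0196 and 0.0345), and Ctsb, on average the most abundant, had 1638, 2012 and 1999 normalized CPM against 955, 844 and 950.

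Hypertrophic chondrocytes, which make Spp1 and Ibsp as cartilage mineralizes, had 1 of 6 genes called lower. The median of -0.22 turned to 0.07 without PBS replicate 1 and was -0.59 without PBS replicates 2 and 3. The gene called was Mmp13, collagenase 3, at 6095, 4572 and 4559 normalized CPM in PBS and 626, 853 and 640 in the labelled libraries (log2 fold change -2.92, edgeR adjusted p = 0.0196). Col10a1, the collagen that defines these cells, had 1080, 589 and 598 in PBS and 648, 790 and 436 in the labelled libraries (edgeR adjusted p = 0.498), and its span overlaps Nt5dc1 on the minus strand.

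No call of any list held without labelled replicate 2 or without labelled replicate 3. Without labelled replicate 2, and likewise without labelled replicate 3, edgeR called 0 genes of all tested in either direction, and without labelled replicate 1 it called 30 higher and 83 lower. Osteoclast genes called lower then numbered 0, 0 and 1, as did the listed genes that cut or modify osteopontin. Without PBS replicate 1, and without PBS replicates 2 and 3, a lone PBS sample is left. Both lists had fewer calls in those fits than with all libraries. The counts moved the other way with the 6 libraries kept apart and with DESeq2, where 11 and 12 osteoclast genes, 5 and 4 receptors of osteopontin and 6 and 6 genes of macrophages with high Spp1 were called lower, as were 1494 and 1413 of all genes. DESeq2 also called 6 macrophage genes lower. The log2 fold change of Ctsk stayed between -3.20 and -2.60 over its 17 alternatives, with an adjusted p from 1.99e-12 to 0.136, and that of Mmp12 between -7.06 and -6.34, with an adjusted p from 2.25e-85 to 0.127.

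Markers of other tissues also differed between the libraries, and their part in the levels of the bone genes was not tested. Of 13 erythroid and marrow genes 0 were called, although 13 of 13 had a positive log2 fold change, where 45.8% of all genes tested had a negative one. The median was 2.64, and it was 5.78 without PBS replicate 1 and 2.01 without PBS replicates 2 and 3. The list summed to 2536, 3191 and 3280 normalized CPM in PBS and 2555, 20600 and 14750 in the labelled libraries, mostly Hba-a1. Hbb, whose span overlaps other annotated genes, had 226, 317 and 355 against 217, 1634 and 1179 (edgeR adjusted p = 0.25). Mpo, a granule gene of marrow precursors, had 626, 7 and 12 counts in PBS and 377, 2330 and 3295 in the labelled libraries, and Rag1, of lymphocyte precursors, had 211, 2 and 4 against 52, 187 and 333. Both were near 0 in the same PBS pair in which Bglap and Sost were low. This did not hold for Hba-a1, at 2053, 2831 and 2887 normalized CPM in PBS, or for Hbb and Alas2.

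Skeletal muscle genes, 0 of 5 called with a median of 1.97, summed to 814, 1078 and 1093 normalized CPM in PBS and 808, 8456 and 2126 in the labelled libraries, with Acta1 the most abundant on average and then Myh4, a myosin gene, at 293, 414 and 420 against 286, 3186 and 728. Of 5 adipocyte genes 0 were called, with a median of 2.63. The median was 4.77 without PBS replicate 1 and 1.76 without PBS replicates 2 and 3. With the 6 libraries kept apart 1 was called higher. The list summed to 383, 64.3 and 68.3 in PBS and 952, 1549 and 676 in the labelled libraries. Fabp4 was the most abundant and then Adipoq, the adiponectin gene, at 106, 10.3 and 9.89 against 296, 588 and 195. Nucleus pulposus and notochord genes had 0 of 7 called, with a median of 2.22 that was the same with Shh at its lower bound. The median was 3.49 without PBS replicate 1 and 1.70 without PBS replicates 2 and 3. With the 6 libraries kept apart 2 of 6 tested were called higher. The list summed to 1686, 542 and 534 against 7163, 3979 and 3507. Car3 was the most abundant on average and then Cd24, a surface marker, at 301, 226 and 223 against 1703, 648 and 820. In the sums of the adipocyte and nucleus pulposus lists the PBS pair was lowest and PBS replicate 1 lay between it and the labelled libraries, which did not hold for Foxf1 and Shh of the latter list.

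Cartilage and disc matrix genes had 0 of 12 called and a median of -0.34 (-0.55 without PBS replicates 2 and 3). With the 6 libraries kept apart 1 was called lower. The list summed to 26320, 36320 and 36180 in PBS and 42800, 30960 and 46550 in the labelled libraries. Acan, the aggrecan gene, had 2305, 4397 and 4440 against 7450, 3225 and 5947 (edgeR adjusted p = 0.412). Annulus and tendon genes had 0 of 6 called and a median of 0.04. The median was -0.15 with the 6 libraries kept apart, where 1 was called lower. It was -0.40 without PBS replicate 1 and 0.91 without PBS replicates 2 and 3. The list summed to 3990, 9662 and 9732 against 5623, 3705 and 5243, with Fmod, a collagen-binding proteoglycan, the most abundant on average. Col12a1, a collagen of tendon and ligament, exceeded Fmod in each PBS library, at 1840, 5523 and 5564 normalized CPM in PBS and 874, 575 and 457 in the labelled libraries. Without Col12a1, left out after the data were seen, the annulus sum was 2150, 4139 and 4168 in PBS and 4749, 3130 and 4786 in the labelled libraries. Endothelial genes had 0 of 5 called and a median of -0.05 (-0.14 without PBS replicates 2 and 3). With the 6 libraries kept apart 2 were called lower. The list summed to 445, 538 and 517 against 333, 399 and 394. Pecam1 was the most abundant and then Cdh5, a cadherin gene of endothelium, at 91.2, 110 and 108 against 66.2, 82.9 and 73.6.

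**Figure D3:**
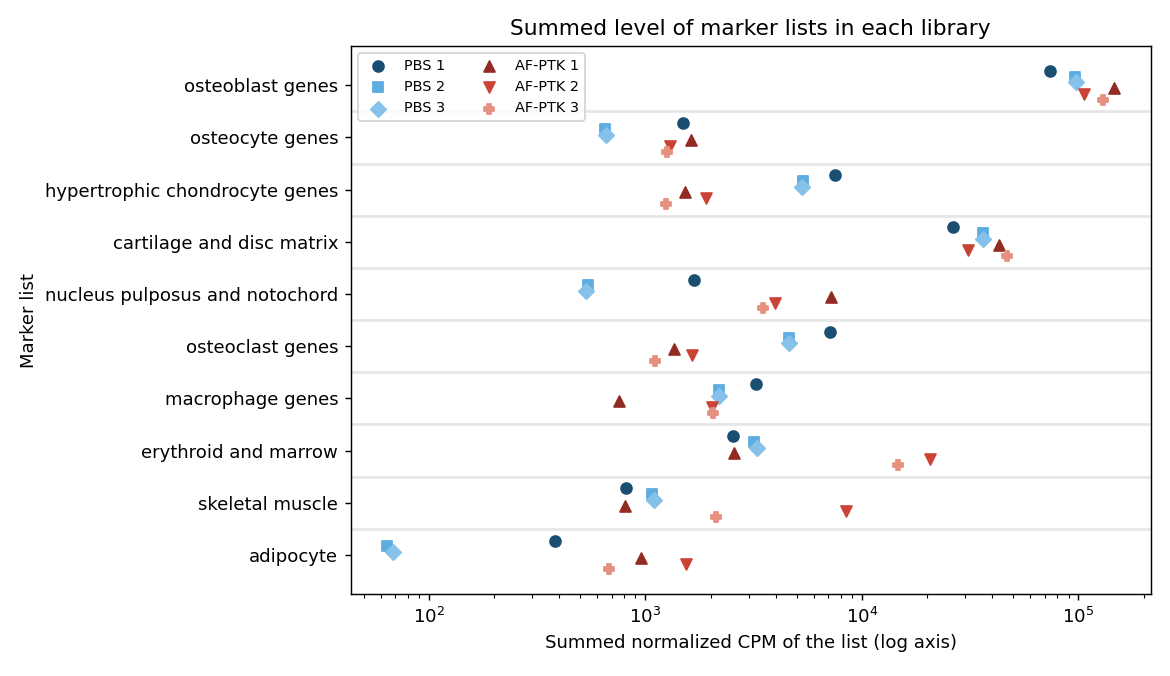
Summed normalized CPM (log axis) of 10 marker lists, with 1 point for each library, 3 of PBS (blue) and 3 labelled AF-PTK@LEV@SPP1 (red, AF-PTK). Osteoclast genes summed to 1108 to 1648 in the labelled libraries and to 4608 to 7135 in PBS, and osteocyte genes were lowest in PBS replicates 2 and 3.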

How the data were processed

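The authors deposited counts, whole numbers of reads per Ensembl rat gene and library, without normalization. The submitters' processing notes name FastQC, Trimmomatic, HISAT2, featureCounts and DESeq2 without versions, and the mouse build mm10, while identifiers and coordinates are of rat; the use of strand and of shared reads is not given in the sources used here. The test was that of edgeR 4.0.16, run in R 4.3.3 (TMM, filterByExpr with a minimum count of 10, quasi-likelihood test, Benjamini-Hochberg adjustment over 15537 genes, calls at an adjusted p under 0.05), with PBS replicates 2 and 3 summed. Pairs of libraries were compared with counting noise over genes whose counts in both libraries came to 20 or more, and a pair under 2 times that noise was counted once. The edgeR test was tried on simulated counts, and no result given here draws on that trial. Intervals are at 95%. Normalized CPM used TMM factors of the 6 libraries from the genes that passed the filter. Factors from all genes had been computed first, and the choice between them was made after values of both, and an earlier value for Spp1, had been seen; factors from all genes give 0.982 to 1.02 times these levels. A prior count of 2 entered log2 CPM.

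The members and lists were chosen with earlier results of these data known. The genes named are the 9 members, Dspp and the 5 genes most like Spp1. From each list they are up to 4 called genes in each direction and the 2 most abundant genes. Snorc was singled out of the 5 after its values were seen. Dkk1, Pdpn, Fbln7, Mpo, Rag1, Alas2, Pkd2, Sparcl1, Anxa6, Cd163, Foxf1 and Shh were also named after their values were seen. The list genes Krt19, Myh1 and Mylpf were not matched by name. F2r was named to complete a count. The labels call the libraries separate samples and the study's methods name 3 animals per group. Alternatives were DESeq2 1.42.0, limma-voom (limma 3.58.1), other normalizations and filters, a robust fit, a fold threshold, the 6 libraries kept apart, the replicate number as a block and each library left out.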

Additional observations from a re-analysis of the deposited data

How the results depend on the processing

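Of the 9 genes, 0 were called under every alternative run except without PBS replicate 1, where 3 were; the range with each library left out was 0 to 3. The log2 fold change of Spp1 was positive in 16 of 17 alternatives and stood between 0.25 and 0.81 with each library left out, and it was -0.0657 without PBS replicates 2 and 3 together, chosen after seeing the data. In that fit Phex and Fgf23 also turned, to -0.43 and -0.17, and 0 genes were called higher and 3 lower. With the 6 libraries kept apart Dmp1 and Mepe turned to 0.0355 and 0.0781, with limma-voom Mepe and Fgf23 turned to 0.24 and -0.66, without PBS replicate 1 Dmp1, Mepe and Alpl turned to 1.35, 1.77 and 0.22, and without labelled replicate 3 Fgf23 turned to -2.05. With each library left out, the ranges were -0.731 to 1.35 for Dmp1, -0.486 to 1.77 for Mepe, -0.629 to 0.224 for Alpl and -2.05 to 0.679 for Fgf23. In the fit with the replicate number as a block Dmp1, Mepe and Fgf23 turned to 0.47, 0.82 and -0.61, no gene of the 9 was called, and 307 genes were called higher and 434 lower. Libraries with the same number had correlations of -0.32, -0.27 and -0.08 between their deviations from the group means, which the near-identical PBS pair keeps from telling whether the numbers pair the libraries. Genes called higher numbered 175 and genes called lower 400, against 1233 and 1494 with the 6 libraries kept apart and 1077 and 1413 with DESeq2. With each library left out they ranged from 0 to 170 higher and from 0 to 396 lower. Factors from all genes in place of those from the filtered genes moved no mean level of the 9 genes by more than 1 SD. With levels at 0.982 to 1.02 times the others, a larger move was hardly possible. The genes of the 9 whose groups did not overlap rose from 1 to 2, by Ibsp. With factors from the filtered genes, 41.9% of all genes tested had no overlap in either direction. The cause of these changes was not tested. Fgf23 was not tested at a minimum count of 50, and depth limits Fgf23 and Dspp.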
